A study of Homo sapiens with 12 samples.

Results

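EWSR1 and TAF15 encode RNA-binding proteins of the FET family, and their gene levels, splice forms and intronic reads were followed over 12 RNA sequencing libraries. The members were chosen by name, after earlier results of the same libraries had shown a retained stretch of EWSR1 intron 14 to be more abundant upon depletion in Cisplatin-treated cells. They make up 2 of the 26334 genes in the count tables and 86 of the 135597 distinct splicing events, 39 in EWSR1 and 47 in TAF15. Values of depletion in Cisplatin-treated cells are therefore given as a description, with no test, and so are all values of the EWSR1 events that overlap that stretch wherever Cisplatin-treated cells enter. The Cisplatin-treated depleted libraries behind that choice also enter the comparison of Cisplatin in depleted cells.

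FET proteins are abundant nuclear proteins with a low-complexity N-terminal region, an RNA recognition motif and arginine- and glycine-rich repeats. They bind nascent transcripts, contact RNA polymerase II and the U1 snRNP, and are carried into the nucleus by transportins. EWSR1 is known for the gene fusions of Ewing sarcoma, and TAF15 is found with part of the TFIID complex, which places RNA polymerase II at promoters.

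The cells were A549, a human lung adenocarcinoma line, infected with lentivirus and selected with puromycin at 1 µg/ml for 4 days in all groups. They carried a control shRNA (shControl, called control cells) or an shRNA against RNF113A (shRNF113A, called depleted cells), and RNF113A is a zinc finger component of the spliceosome. Each background was left untreated or given Cisplatin, a drug that crosslinks DNA, which the labels state as 25 µg/ml over 20 h. The study's text gives its Cisplatin doses in µM, so the unit of the dose is uncertain. Each of the 4 groups had 3 libraries, which the study calls biological replicates without saying whether they came from separate infections, so that p-values may measure a spread that is partly technical. As these are bulk libraries, fewer cells with a transcript and less of it per cell cannot be told apart.

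Between 33859097 and 56071514 read pairs per library were counted, of which 26220526 to 45721152 fell on the strand of a gene. Depleted cells with Cisplatin gave the 3 smallest libraries. RNF113A, the targeted gene, had 20.3, 19.5 and 19.8 CPM in untreated control cells and 15.3, 15.8 and 16.8 CPM in untreated depleted cells, a log2 fold change of −0.31 ± 0.092 (SE, adjusted p = 0.0247 from edgeR). In Cisplatin-treated cells it had 31.5, 28.9 and 27.7 CPM with the control shRNA and 25.8, 24.3 and 29.9 CPM with the shRNA against it, and this difference did not pass the test (log2 fold change −0.14 ± 0.091, adjusted p = 0.233 from edgeR). These RNA values do not measure protein, which the study examined by western blot in control and depleted A549 cells. Epithelial markers were present in all 12 libraries (KRT8, KRT18 and KRT7 at 1113 to 7450 CPM, EPCAM at 3.66 to 97.6 CPM, CDH1 at 32.1 to 197 CPM), CDKN2A, which A549 cells have lost, was at 0 in all of them, and haematopoietic and endothelial markers reached at most 0.315 CPM. Of the fibroblast markers, DCN and COL3A1 reached at most 0.037 and 0.599 CPM, and COL1A1 was at 3.32 to 34.9 CPM in all 12 libraries. The summed epithelial markers were at 8521 to 14999 CPM in untreated and 4614 to 6595 CPM in Cisplatin-treated control cells, and at 14478 to 15914 and 6517 to 6842 CPM in depleted cells. KRT8, KRT18 and KRT7 make up most of these sums, and upon depletion in untreated cells EPCAM was 8.91-fold higher (adjusted p = 0.000166 from edgeR) while CDH1 was lower, at 0.695-fold (adjusted p = 0.0414 from edgeR). In untreated control cells library 2 had the highest COL1A1 (34.9 CPM against 5.86 and 7.08), EPCAM (18.4 against 7.02 and 5.57) and CDH1 (197 against 153 and 137). The part of these markers in the results was not tested.

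EWSR1 lies on the plus strand at chr22:29663998-29696515 of GRCh37 and TAF15 on the plus strand at chr17:34136486-34191619. Exons are numbered here along the canonical transcripts EWSR1-206 and TAF15-214, which have 656 and 592 coding codons. Another annotated gene, ENSG00000270894, lies inside TAF15 on the same strand (34145403 to 34150717), so its reads cannot be told apart from intronic reads of TAF15, and ENSG00000270871 (34143721 to 34157297) lies on the opposite strand.

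**Figure D1:**
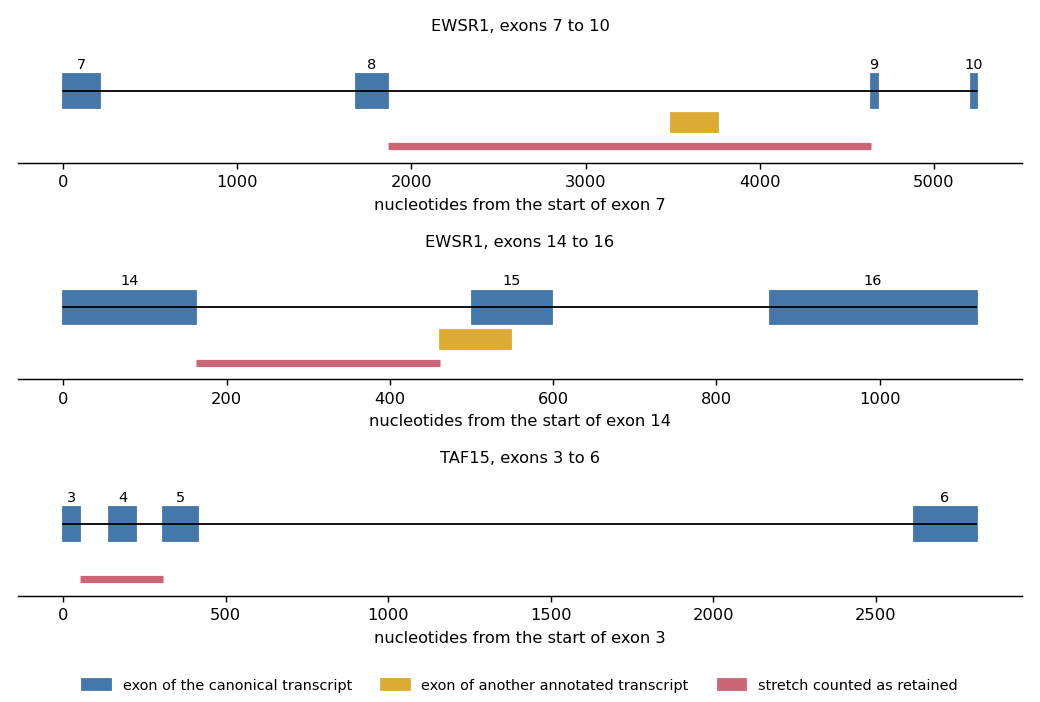
Maps of the stretches on which the splicing results turn, with distance in nucleotides from the start of the first exon drawn on the horizontal axis. Blue boxes are numbered exons of the canonical transcript, yellow boxes exons of other annotated transcripts and red bars the stretches counted as retained. The red bar of EWSR1 intron 14 ends at the yellow exon and not at exon 15, and that of TAF15 spans exon 4 with the introns on either side.

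Cisplatin and depletion moved the gene levels of EWSR1 and TAF15 little, with log2 fold changes between −0.35 and 0.31 in the comparisons tested. EWSR1 fell upon Cisplatin in depleted cells. TAF15 rose upon Cisplatin in control cells and upon depletion in untreated cells, but neither rise passed without library 2 of the untreated control cells or in a fit of the 2 groups alone. The rise in control cells did pass when that fit held a term for the replicate number, a choice made after seeing the data. Levels are CPM after TMM scaling of read pairs on the gene's strand.

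EWSR1 had 297, 228 and 286 CPM in untreated control cells, with a mean of 270 ± 36.7 (SD, n = 3). Cisplatin-treated control cells had 253, 255 and 261 CPM (mean 256 ± 4.01). Library 2 of the untreated control cells was the lowest of all 12 and the other libraries of that group lay above every Cisplatin-treated control library. Untreated depleted cells had 313, 303 and 307 CPM (mean 308 ± 5.03), and Cisplatin-treated depleted cells 244, 244 and 237 CPM (mean 242 ± 3.83). These last groups did not overlap, and every untreated depleted library lay above all 9 others.

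In depleted cells Cisplatin lowered EWSR1, with a log2 fold change of −0.35 ± 0.087 (SE, adjusted p = 0.00388 from edgeR). Over both backgrounds together it was −0.21 ± 0.072 (adjusted p = 0.0174 from edgeR), in a comparison in which 66.8% of the 15352 genes tested passed the same threshold of 0.05. In control cells alone EWSR1 did not pass (−0.08 ± 0.087, adjusted p = 0.467), where 55.0% of genes did, and 60.2% of genes passed in depleted cells. Depletion in untreated cells gave 0.19 ± 0.087 for EWSR1 (adjusted p = 0.126), where 27.4% of genes passed. The median log2 fold change of all genes moved from 0.03 with TMM scaling to 0.125 with scaling to library size over both backgrounds, and EWSR1 from −0.21 to −0.115 (adjusted p = 0.137), which left it 0.242 and 0.24 below the median.

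TAF15 had 196, 148 and 183 CPM in untreated control cells (mean 176 ± 24.7, SD, n = 3) and 210, 210 and 225 CPM in Cisplatin-treated control cells (mean 215 ± 8.88). All Cisplatin-treated control libraries lay above all untreated ones, of which library 2 was again the lowest. Untreated depleted cells had 229, 223 and 202 CPM (mean 218 ± 14.0), and Cisplatin-treated depleted cells 183, 203 and 165 CPM (mean 183 ± 18.8). Library 2 of the latter lay just above the lowest untreated depleted library, so these groups met.

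TAF15 rose in control cells upon Cisplatin by a log2 fold change of 0.29 ± 0.106 (SE, adjusted p = 0.0328 from edgeR). Depletion raised it in untreated cells by 0.31 ± 0.106 (adjusted p = 0.0454 from edgeR), a call that was kept in 4 of the 12 fits that left out 1 library and was lost in the others (adjusted p = 0.0520 to 0.139), with unstranded counts (adjusted p = 0.0516), without a filter (adjusted p = 0.0565) and with the 2 groups alone (adjusted p = 0.0795). In depleted cells Cisplatin gave −0.25 ± 0.106, which did not pass (adjusted p = 0.0593) but did with DESeq2 (−0.29, adjusted p = 0.0215), with unstranded counts (adjusted p = 0.0489), with the 2 groups alone (−0.30, adjusted p = 0.00433 from edgeR) and in 6 of the 12 fits that left out 1 library, so this call is undecided. Over both backgrounds the value was 0.02 ± 0.105 (adjusted p = 0.863). Without library 2 of the untreated control cells, neither rise of TAF15 passed (0.18, adjusted p = 0.104, and 0.20, adjusted p = 0.109), and EWSR1 fell upon Cisplatin in control cells (−0.19, adjusted p = 0.0174 from edgeR). The rise of TAF15 in control cells did not pass without library 3 of the Cisplatin-treated control cells either (0.28, adjusted p = 0.0819), nor with the 2 groups alone (0.295, adjusted p = 0.0719), though it did with these and the replicate block (0.304, adjusted p = 0.0107 from edgeR). Depletion in Cisplatin-treated cells had values of −0.08 for EWSR1 and −0.23 for TAF15, and the Cisplatin effect in depleted minus that in control cells was −0.27 and −0.54, both untested for the reason given above.

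Per kilobase of canonical transcript (2400 nt for EWSR1 and 2162 nt for TAF15), EWSR1 lay above TAF15 in each group. The level of EWSR1 was 113 ± 15.3 CPM per kb in untreated control cells, 107 ± 1.67 with Cisplatin, 128 ± 2.09 in untreated depleted cells and 101 ± 1.60 in depleted cells with Cisplatin (SD, n = 3). For TAF15 it was 81.2 ± 11.4, 99.5 ± 4.11, 101 ± 6.48 and 84.9 ± 8.71 CPM per kb in the same order. From high to low the order of EWSR1 was untreated depleted, untreated control, Cisplatin-treated control and Cisplatin-treated depleted cells, in which the SD of the untreated control cells reached into both neighbours and the Cisplatin-treated groups stood apart from each other. For TAF15 the order was untreated depleted, Cisplatin-treated control, Cisplatin-treated depleted and untreated control cells, and the SDs overlapped within the upper and within the lower pair.

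**Figure D2:**
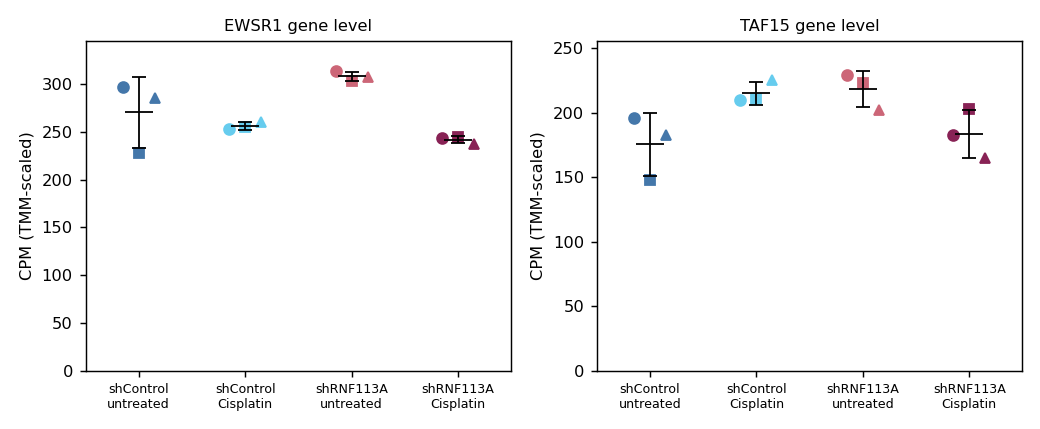
Gene levels of EWSR1 and TAF15 in CPM after TMM scaling, by group, with axes from 0. Circles, squares and triangles are libraries 1, 2 and 3, the long bar is the mean and the whiskers are 1 SD. EWSR1 spans 228 to 313 CPM and TAF15 148 to 229 CPM, and library 2 of the untreated control cells is the lowest for both genes.

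Splicing was read from reads of the inclusion and the skipping form of each event, in which an inclusion level is the inclusion reads per nucleotide as a percent of both forms. The order of libraries in these tables is not named, so they are called a, b and c within each group. Over all 5 categories of events, 9 of the 65 tested events of EWSR1 and TAF15 passed an adjusted p of 0.05 upon Cisplatin in depleted cells. None of 55 did so upon Cisplatin in control cells and none of 42 upon depletion in untreated cells. Only 1 of the 9 also moved its inclusion level by at least 20 points. The calls of EWSR1 in depleted cells use the Cisplatin-treated libraries by which it was chosen, so they are not independent of that choice.

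Retained introns gave 3 of the 9 (3 of 3 tested, where 12.7% of all 4116 retained introns passed, and 0.948% also moved by 20 points). Skipped exons gave 5 of 40 tested, against 1.49% of all skipped exons (0.224% with the limit of 20 points). Alternative 5′ splice sites gave 1 of 4, against 3.37% (0.536% with the limit). For mutually exclusive exons (0 of 13) and alternative 3′ splice sites (0 of 5), 2.41% and 1.92% of all events passed. Among retained introns 0.486% passed upon Cisplatin in control cells (0.0730% with the limit) and 14.0% upon depletion in untreated cells (0.862% with the limit). Among skipped exons, mutually exclusive exons and alternative 3′ and 5′ splice sites, 0.272%, 1.36%, 0.442% and 0.856% of all events passed upon Cisplatin in control cells, and 0.0625%, 0.551%, 0.573% and 0.339% upon depletion in untreated cells, so that the counts of 0 for the members in these categories lie near the share of all events. The 9 events are not independent: they rest on 4 sets of reads, those of EWSR1 intron 8, of the junction from EWSR1 exon 7 to exon 10, and of the junctions from TAF15 exon 3 to exon 5 and to exon 6.

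The stretch from which the members were chosen is the first 299 nt of EWSR1 intron 14, chr22:29694886-29695184. It is printed here with its first and last bases in capitals, because it carries the retained reads and ends in an AG that is not the acceptor of exon 15.

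EWSR1 retained stretch of intron 14: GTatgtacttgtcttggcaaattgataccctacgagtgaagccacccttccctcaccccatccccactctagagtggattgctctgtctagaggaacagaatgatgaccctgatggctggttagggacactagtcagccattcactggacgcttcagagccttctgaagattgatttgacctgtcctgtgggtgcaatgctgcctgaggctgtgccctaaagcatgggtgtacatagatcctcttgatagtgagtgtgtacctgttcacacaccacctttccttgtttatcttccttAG

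Both 3′ ends of intron 14 lie within chr22:29695165-29695244, where capitals mark the AG before the minor exon of transcript EWSR1-019 (29695185 to 29695270, 86 nt) and the AG before exon 15, which starts at 29695224.

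EWSR1 ends of intron 14: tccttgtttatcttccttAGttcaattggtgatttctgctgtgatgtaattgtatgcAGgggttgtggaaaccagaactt

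The skipping form of this event joins exon 14 to the minor exon, so reads that join exon 14 to exon 15, the canonical junction, are in neither form. An inclusion level over 50% is thus no share of EWSR1 transcripts. Inclusion reads numbered 99, 88 and 85 without and 35, 64 and 70 with Cisplatin in control cells. In depleted cells they numbered 118, 121 and 95 without and 99, 99 and 59 with Cisplatin. Skipping reads numbered 18, 10 and 13, then 19, 28 and 10, then 8, 13 and 14, and 7, 8 and 3 in the same order of groups. The mean inclusion levels were 56.9% ± 5.78, 38.2% ± 16.9, 65.1% ± 8.66 and 74.4% ± 4.42 (SD, n = 3). The levels of Cisplatin-treated control cells, 26.3%, 30.7% and 57.6%, spread widely, and none of them reached the lowest of Cisplatin-treated depleted cells, 70.6%. In untreated cells, where the test is independent of the choice, the event did not pass (log2 change of the inclusion to skipping ratio 0.51 ± 0.473, adjusted p = 0.529 from edgeR).

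Set per nucleotide against the reads of exon 13, a constitutive exon nearby, the stretch held 2.75%, 2.70% and 2.33% in untreated control cells and 1.05%, 1.66% and 1.76% in Cisplatin-treated control cells. Untreated depleted cells had 2.98%, 2.93% and 2.74%, and Cisplatin-treated depleted cells 3.92%, 3.55% and 2.60%. On this scale the stretch was a few percent of the exons in every group. In untreated cells the means of 2.59% and 2.89% differed by 0.290 points with overlapping libraries (exact permutation test, two-sided, p = 0.2, where 3 against 3 libraries cannot go below 0.1). The form with the minor exon was 3.03% of the exon 15 form in control cells with Cisplatin, and 2.21% without and 2.08% with Cisplatin in depleted cells.

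A second event at this place retains the bases between the minor exon and exon 16, and these hold the end of exon 15, so that reads of exon 15 count as inclusion. It had 410 to 493 inclusion reads and 17 to 21 skipping reads a library in untreated control cells, and its mean inclusion levels were 81.9% and 80.2% in control cells and 87.5% and 87.3% in depleted cells, without and with Cisplatin. It did not pass upon depletion in untreated cells (0.59 ± 0.375, adjusted p = 0.320 from edgeR). The third event, from exon 14 to exon 16, holds exon 15 whole, had 0 to 2 skipping reads a library and was listed in 2 of the 4 comparisons. If all 338 nt of intron 14 are kept, the reading frame meets a stop at codon 535.

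EWSR1 intron 8 rose in depleted cells upon Cisplatin, in a comparison in which intronic reads rose in most genes. It spans 2775 nt at chr22:29684776-29687550, between exon 8, which codes part of the arginine- and glycine-rich region, and the short exon 9. Exon 8 with the start of the intron, chr22:29684595-29684795, is shown with the GT of the donor in capitals, because the bases after the G that opens the intron spell a stop in the frame of exon 8.

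EWSR1 exon 8 and intron 8 start: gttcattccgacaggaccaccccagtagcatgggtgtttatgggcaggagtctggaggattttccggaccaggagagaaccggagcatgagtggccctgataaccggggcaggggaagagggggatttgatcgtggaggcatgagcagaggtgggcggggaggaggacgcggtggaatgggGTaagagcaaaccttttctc

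The end of the intron with exon 9, chr22:29687491-29687598, holds a pair of acceptors 3 nt apart, both in capitals.

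EWSR1 intron 8 end and exon 9: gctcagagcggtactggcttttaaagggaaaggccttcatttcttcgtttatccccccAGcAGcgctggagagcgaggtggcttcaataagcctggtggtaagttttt

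A transcript that keeps intron 8 meets its stop at codon 326 of the frame, after 4 nt of intron, against 656 coding codons in the canonical transcript. Another annotated exon, of transcript EWSR1-004, lies inside the intron (29686402 to 29686673, 272 nt), and reads on it are counted with the intron.

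Inclusion reads of intron 8 numbered 1503, 1294 and 1410 in untreated control cells and 1223, 983 and 2648 in Cisplatin-treated control cells. Depleted cells had 2279, 2570 and 1729 untreated and 2327, 2684 and 2041 with Cisplatin. Library c of the Cisplatin-treated control cells held more than both other libraries of its group together. Reads that joined exon 8 to the first acceptor numbered 153, 122 and 136, then 151, 135 and 179 in control cells, and 155, 146 and 142, then 72, 107 and 83 in depleted cells. Joined reads were thus fewer in every Cisplatin-treated depleted library than in the others, while the intron reads were not. These were also the smallest libraries.

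The inclusion level against the first acceptor was 19.9%, 21.2% and 20.8% in untreated control cells (mean 20.6% ± 0.642) and 17.0%, 15.6% and 27.2% in Cisplatin-treated control cells (mean 19.9% ± 6.36; SD, n = 3). In depleted cells it was 27.1%, 30.8% and 23.5% untreated (mean 27.2% ± 3.63) and 44.98%, 38.8% and 38.3% with Cisplatin (mean 40.7% ± 3.70). Every Cisplatin-treated depleted library lay above all 9 others. The log2 change of the inclusion to skipping ratio was 0.88 ± 0.185 upon Cisplatin in depleted cells (adjusted p = 7.3e-05 from edgeR), a difference of 13.6 points and thus under the limit of 20. Its higher group is made up of the Cisplatin-treated depleted libraries by which EWSR1 was chosen, so this test is not independent of that choice. Neither Cisplatin in control cells (−0.10 ± 0.327, adjusted p = 0.963) nor depletion in untreated cells (0.52 ± 0.218, adjusted p = 0.0929) passed. With an unweighted limma test of the same ratio, Cisplatin in depleted cells did not pass (adjusted p = 0.176). Depletion in Cisplatin-treated cells had a difference of 20.8 points, given as a value only.

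The event against the second acceptor had mean levels of 20.7%, 20.2%, 25.8% and 41.0% in the same order of groups, with 0.97 ± 0.182 upon Cisplatin in depleted cells (adjusted p = 4.1e-06 from edgeR). It is no second measurement, since its inclusion reads exceeded those of the first event by 72 to 179 a library, within 2 reads of the reads joined to the first acceptor in every library. Spliced reads were thus counted as inclusion there. With the reads of both acceptors taken as spliced, the level of intron 8 was 11.0% ± 0.657 without and 10.8% ± 4.46 with Cisplatin in control cells, and 14.8% ± 2.27 without and 25.2% ± 1.96 with it in depleted cells (SD, n = 3). This level was 1.70 times as high in depleted cells with Cisplatin as without, and 1.34 times as high in untreated depleted as in untreated control cells, with no overlap of libraries in either case (exact permutation tests, two-sided, p = 0.1 each, the smallest possible).

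Against exon 13, intron 8 held 5.22% ± 0.204, 5.60% ± 2.78, 7.37% ± 0.819 and 12.1% ± 0.430 of the reads per nucleotide in the same order of groups (SD, n = 3). Both scales put Cisplatin-treated depleted cells highest. Over all genes the ratio of intronic to exonic reads had a median log2 change of 0.75 upon Cisplatin in depleted cells, and 74.4% of genes passed. EWSR1 as a whole, a measure that takes in the reads of intron 8, lay above 56.5% of genes in this change. The first acceptor took 46.8% ± 1.42, 46.6% ± 2.62, 45.7% ± 3.04 and 48.6% ± 7.45 of the joined reads per nucleotide, and no tested comparison of this share passed (adjusted p = 0.842 to 0.998 from edgeR).

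Reads that skipped EWSR1 exons 8 and 9 together, joining exon 7 to exon 10, were rare in every group and most frequent in depleted cells with Cisplatin. In control cells they numbered 1, 1 and 1 without and 4, 2 and 5 with Cisplatin, and in depleted cells 2, 3 and 0 without and 4, 8 and 12 with it. Their mean share of the reads of exon 8 and this junction was 0.0645%, 0.225%, 0.0973% and 0.859% in that order. Libraries with and without Cisplatin did not overlap in either background (exact permutation tests, two-sided, p = 0.1 each, the smallest possible). The inclusion level of exon 8 against this junction was 99.7% in untreated and 97.1% in Cisplatin-treated depleted cells, a log2 change of −2.93 ± 0.780 (adjusted p = 0.0162 from edgeR). The 3 skipped exon events of EWSR1 that passed, exon 8 and both forms of exon 9, share these skipping reads (adjusted p = 0.0152 to 0.0162). The call for exon 8 was lost when any 1 of 5 of the 6 libraries was left out (adjusted p up to 0.454), and library c of the Cisplatin-treated group held 12 of its 24 reads. Skipping both exons removes 219 nt, a multiple of 3, and keeps the reading frame. In control cells the skipped exon events on the same junction did not pass upon Cisplatin (adjusted p = 0.739 for the most read one, which takes exon 8, intron 8 and exon 9 as 1 exon). That event did not pass in depleted cells either (adjusted p = 0.0870 from edgeR).

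**Figure D3:**
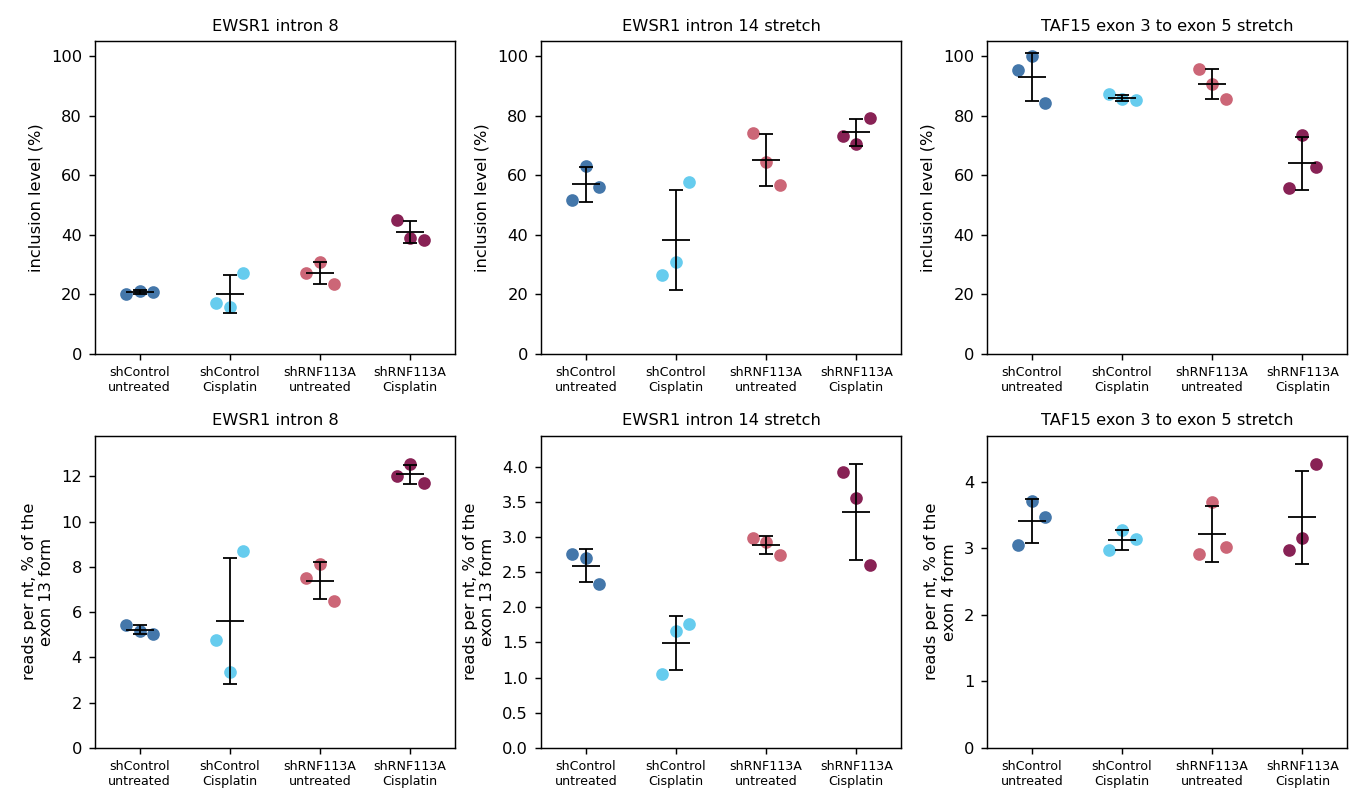
Upper row, inclusion levels in percent, and lower row, reads per nucleotide in percent of those of the exon 13 form of EWSR1 or the exon 4 form of TAF15, for EWSR1 intron 8, the EWSR1 intron 14 stretch and the TAF15 stretch from exon 3 to exon 5. Points are libraries, bars means and whiskers 1 SD. Intron 8 is highest in Cisplatin-treated depleted cells on both scales (mean 40.7% and 12.1%), while the TAF15 stretch is lowest there in the upper row (64.0%) and level with the other groups in the lower one (3.13% to 3.47%).

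In its inclusion level the single retained intron event of TAF15 moved the other way, but its reads per nucleotide against exon 4 did not fall. It spans 256 nt from the end of exon 3 to the start of exon 5, chr17:34147080-34147335, and holds exon 4 (34147168 to 34147252, 85 nt), shown in capitals between its introns of 88 and 83 nt.

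TAF15 exon 3 to exon 5: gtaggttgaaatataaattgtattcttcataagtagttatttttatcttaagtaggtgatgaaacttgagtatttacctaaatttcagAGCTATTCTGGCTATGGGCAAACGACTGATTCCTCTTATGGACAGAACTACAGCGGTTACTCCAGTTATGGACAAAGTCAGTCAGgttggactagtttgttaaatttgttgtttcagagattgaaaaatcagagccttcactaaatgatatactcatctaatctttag

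Exon 4 codes part of the low-complexity region, which is rich in tyrosine, glycine, glutamine and serine. The skipping form of the event joins exon 3 directly to exon 5, so its reads are those of transcripts that skip exon 4. Reads that join exon 3 to exon 4 or exon 4 to exon 5, the canonical junctions, are in neither form. The inclusion level is thus no share of TAF15 transcripts.

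Inclusion reads of the stretch numbered 91, 85 and 97 without and 93, 109 and 132 with Cisplatin in control cells, and 105, 135 and 82 without and 69, 76 and 69 with it in depleted cells. Reads that joined exon 3 to exon 5 numbered 1, 0 and 4 in untreated control cells and 3, 4 and 5 in Cisplatin-treated control cells. In depleted cells they numbered 1, 3 and 3 untreated and 12, 6 and 9 with Cisplatin. Every Cisplatin-treated depleted library had more of them than any other library, although these were the smallest libraries.

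The inclusion level was 95.2%, 100% and 84.2% in untreated control cells (mean 93.1% ± 8.11) and 87.2%, 85.7% and 85.3% in Cisplatin-treated control cells (mean 86.0% ± 1.01; SD, n = 3). In depleted cells it was 95.8%, 90.8% and 85.7% untreated (mean 90.8% ± 5.06) and 55.8%, 73.5% and 62.7% with Cisplatin (mean 64.0% ± 8.95). The latter lay below all 9 others. Upon Cisplatin in depleted cells it fell by 26.8 points, with a log2 change of the inclusion to skipping ratio of −2.47 ± 0.650 (adjusted p = 0.00246 from edgeR). The difference stayed between −31.5 and −22.7 points and passed when each of the 6 libraries was left out in turn, and it did not pass with limma (adjusted p = 0.093). Cisplatin in control cells (−0.94 ± 0.859, adjusted p = 0.845) and depletion in untreated cells (−0.24 ± 0.874, adjusted p = 0.900) did not pass.

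Per nucleotide, the stretch held 3.41% ± 0.333, 3.13% ± 0.154, 3.21% ± 0.420 and 3.47% ± 0.702 of the exon 4 form in the order of groups above (SD, n = 3), with overlapping libraries. In depleted cells the difference upon Cisplatin was 0.256 points (exact permutation test, two-sided, p = 0.6).

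As a skipped exon, TAF15 exon 4 was included at 99.7% in untreated and 98.0% in Cisplatin-treated depleted cells, a log2 change of −2.53 ± 0.713 (adjusted p = 0.0301 from edgeR). The shorter form of exon 4 described below gave −2.50 ± 0.713 (adjusted p = 0.0341 from edgeR) on the same skipping reads. Skipping reads were 0.123%, 0.233%, 0.153% and 0.913% of the exon 4 reads on average in the order of groups above, and in depleted cells the libraries with and without Cisplatin did not overlap (exact permutation test, two-sided, p = 0.1). Leaving out any 1 of 5 of the 6 libraries ended the call for exon 4 (adjusted p up to 0.445). Without its 85 nt, which are no multiple of 3, the reading frame of TAF15 meets a stop at codon 139 of a frame that has 592 coding codons in full. If the introns are kept with exon 4, the stop comes at codon 36.

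Transcripts that skip TAF15 exons 4 and 5 together were rarer still. Reads that joined exon 3 to exon 6 numbered 0, 0 and 0 in untreated control cells and in untreated depleted cells, where a count of 0 allows up to 3 reads a library. They numbered 0, 1 and 1 in Cisplatin-treated control cells and 2, 1 and 6 in Cisplatin-treated depleted cells. The alternative 5′ splice site event that uses this junction as its skipping form had levels of 100% and 97.6% in depleted cells without and with Cisplatin (adjusted p = 0.0220 from edgeR), and a cassette event of exon 5 with the same junction did not pass (adjusted p = 0.1001). Skipping both exons removes 191 nt, and the frame then meets a stop at codon 42.

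Exon 4 of TAF15 has a pair of donors 9 nt apart, shown in capitals at the end of the exon, chr17:34147222-34147264.

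TAF15 end of exon 4: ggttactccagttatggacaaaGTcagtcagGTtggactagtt

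The downstream donor took most of the reads in every group, with inclusion levels of the longer form of 85.2% ± 4.27, 86.6% ± 1.57, 89.5% ± 1.07 and 88.4% ± 1.06 in the order of groups above (SD, n = 3). In depleted cells the change upon Cisplatin did not pass (−0.15 ± 0.237, adjusted p = 0.792 from edgeR), where exon 4 as a whole was skipped more often.

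**Figure D4:**
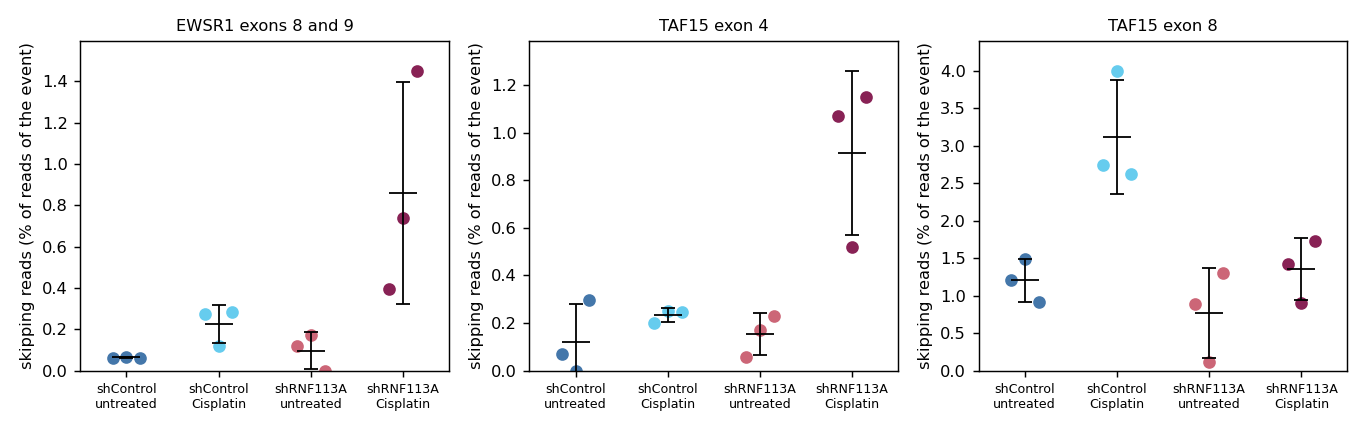
Reads that skip EWSR1 exons 8 and 9, TAF15 exon 4 and TAF15 exon 8, in percent of the reads of the skipped exon event, by group. Points are libraries a, b and c, bars means and whiskers 1 SD. EWSR1 exons 8 and 9 and TAF15 exon 4 were skipped most often in Cisplatin-treated depleted cells (0.859% and 0.913% on average), and TAF15 exon 8 in Cisplatin-treated control cells (3.12%).

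TAF15 exon 8 (34160911 to 34160945, 35 nt), a short exon that was named after its values were seen, had its highest share of skipping reads in control cells with Cisplatin. It is shown in capitals in chr17:34160891-34160955.

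TAF15 exon 8: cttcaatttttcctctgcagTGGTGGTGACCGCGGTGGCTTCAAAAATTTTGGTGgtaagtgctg

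Reads that joined exon 7 to exon 9 numbered 8, 9 and 6 in untreated control cells and 22, 36 and 25 in Cisplatin-treated control cells. In depleted cells they numbered 7, 1 and 8 untreated and 7, 5 and 7 with Cisplatin. The mean share of skipping reads was 1.21% and 3.12% in control cells without and with Cisplatin, with no overlap, and 0.767% and 1.36% in depleted cells. The log2 change of the inclusion to skipping ratio in control cells was −1.38 ± 0.495 with an unadjusted p of 0.00519 and an adjusted p of 0.433 from edgeR over all 68403 skipped exons, so it did not pass. Without exon 8 the reading frame meets a stop at codon 213.

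Among the most read events of each category, several moved little between the groups. For EWSR1 these were exons 6 and 7 as mutually exclusive exons (53.3% to 55.1% over the 4 groups) and an alternative 5′ splice site event across intron 8 (92.3% to 97.3%). An alternative 3′ splice site event of EWSR1 exon 9 lay between 98.2% and 100% in all groups. For TAF15 they were exons 6 and 10 as mutually exclusive exons (52.7% to 53.4% over the 3 groups listed) and exon 15 as a skipped exon (97.7% to 99.4%). None of these passed in a tested comparison (lowest adjusted p = 0.583 from edgeR).

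Intronic reads of EWSR1 and TAF15 rose upon depletion in untreated cells, and those of TAF15 rose further upon Cisplatin in depleted cells. They are counts over the whole gene minus counts over its exons, given per 100 exonic reads. For EWSR1 they take in reads of intron 8, so they are not independent of the intron 8 results. EWSR1 had 10.2, 10.4 and 9.81 in untreated control cells and 9.20, 6.61 and 15.4 in Cisplatin-treated control cells. In depleted cells it had 13.7, 15.8 and 12.2 untreated and 23.4, 25.7 and 25.6 with Cisplatin. TAF15 had 9.27, 8.93 and 11.3, then 11.7, 8.13 and 16.9 in control cells, and 12.6, 14.8 and 11.8, then 29.9, 30.1 and 30.4 in depleted cells.

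All 3 libraries from depleted cells with Cisplatin lay above all others for both genes, at 23.4 to 25.7 for EWSR1 and 29.9 to 30.4 for TAF15. The ratio over all genes together separated in the same way, at 7.51 to 7.85 against at most 4.49. How many single genes did so was not counted. Library 3 of the Cisplatin-treated control cells stood apart from its group for both genes, as it did over all genes (4.49 intronic per 100 exonic reads against 2.63 and 1.73).

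Depletion in untreated cells raised the intronic to exonic ratio of EWSR1 by a log2 change of 0.45 ± 0.125 (SE, adjusted p = 0.00570 from edgeR) and that of TAF15 by 0.41 ± 0.133 (adjusted p = 0.0136 from edgeR). The libraries of the groups did not overlap for either gene. Nor did they for the ratio over all genes together (1.58 to 2.20 against 3.03 to 4.03), and how many single genes did so was not counted. Of the 11841 genes tested, 47.4% passed in this comparison with a median log2 change of 0.46, so that both members lay near the middle of all genes, above 48.0% and 44.2% of them. With an unweighted limma test of the ratio neither passed (adjusted p = 0.0542 and 0.0841).

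Cisplatin in depleted cells raised the ratio of TAF15 by 1.21 ± 0.099 (adjusted p = 3.6e-13 from edgeR), above 77.2% of genes in a comparison in which 74.4% of genes passed and the median was 0.75. EWSR1 had a value of 0.85 there, above 56.5% of genes. In control cells Cisplatin gave 0.26 ± 0.268 for TAF15, which did not pass (adjusted p = 0.604) where 9.15% of genes did, and −0.002 without library 3 of the Cisplatin-treated group, while EWSR1 had a value of −0.05. Depletion in Cisplatin-treated cells had values of 1.34 for EWSR1 and 1.36 for TAF15, beside a median of 0.96 over all genes. Over all genes the mean was 1.94 intronic reads per 100 exonic without and 2.95 with Cisplatin in control cells (median log2 change per gene 0.28), and 3.52 without and 7.72 with it in depleted cells. EWSR1, at 10.1 and 10.4, lay above 21.1% of genes in its change upon Cisplatin in control cells.

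**Figure D5:**
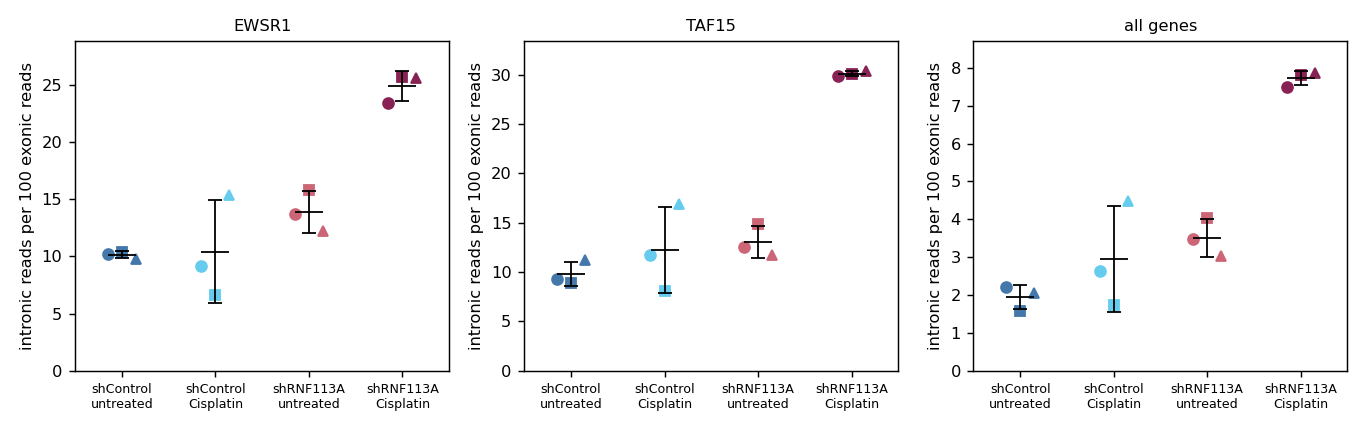
Intronic reads per 100 exonic reads of EWSR1, TAF15 and all genes together, by group, each panel with its own axis from 0. Circles, squares and triangles are libraries 1, 2 and 3, bars means and whiskers 1 SD. Cisplatin-treated depleted cells are highest in all panels (means 24.9, 30.1 and 7.72), and library 3 of the Cisplatin-treated control cells is the highest of its group in all of them.

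The partners and relatives of FET proteins were read from a list of 33 genes, all of which were tested. In control cells Cisplatin raised 9 of them and lowered 7 (28.0% and 27.0% of all genes), and the median log2 fold change of the list was 0.05 where that of all genes was −0.01. In depleted cells 14 rose and 10 fell (32.4% and 27.8% of all genes; median 0.14 against 0.06). Depletion in untreated cells raised 2 and lowered 2 (12.8% and 14.6% of all genes; median 0.01 against 0.00). Leaving out 1 library gave 3 to 9 lower genes upon Cisplatin in control cells, with 3 without untreated control library 1 or 3 or Cisplatin-treated control library 1 and 4 without Cisplatin-treated control library 3, and the 2 groups alone gave 3. Without library 1 of the Cisplatin-treated depleted cells 9 rose upon Cisplatin in depleted cells. Upon depletion 1 to 2 rose and 1 to 5 fell, with 5 without untreated control library 2. For 3 of the 33 the Cisplatin effect differed between the backgrounds in the fit of all libraries, where 4.25% of all genes passed that test.

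Of 16 TFIID subunits, 5 rose and none fell upon Cisplatin in control cells, where 28.0% of all genes rose and 27.0% fell. In depleted cells 9 rose and 1 fell, where 32.4% of all genes rose and 27.8% fell. The subunits TAF3 (1.11 ± 0.080, adjusted p = 2.8e-07 from edgeR) in control cells and TAF13 (0.89 ± 0.102, adjusted p = 1.2e-05 from edgeR) in depleted cells were among the largest rises. POLR2A, the largest subunit of RNA polymerase II, rose most in both, by 1.62 ± 0.160 and 1.52 ± 0.160 (adjusted p = 4.0e-06 and 5.6e-06 from edgeR). It had 119 to 188 CPM in untreated and 424 to 538 CPM in Cisplatin-treated control cells. Depletion in untreated cells raised POLR2A by 0.46 ± 0.157 (adjusted p = 0.0450) and lowered 2 TFIID subunits, TAF12 (−0.67 ± 0.095, adjusted p = 0.000344) and TAF9 (−0.26 ± 0.076, adjusted p = 0.0242, all from edgeR). The call for POLR2A lay near the threshold, and only 4 of the 12 fits that left out 1 library kept 2 higher list genes.

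Of 10 other RNA-binding proteins with a prion-like region or found in paraspeckles, 1 rose and 6 fell upon Cisplatin in control cells, and 1 rose and 7 fell in depleted cells. Of all genes 28.0% rose and 27.0% fell in control cells, and 32.4% and 27.8% in depleted cells. HNRNPA2B1, which binds pre-mRNA, fell most, from 1651 to 2004 CPM in untreated to 885 to 945 CPM in Cisplatin-treated control cells, a log2 fold change of −0.97 ± 0.079, and of −1.16 ± 0.079 in depleted cells (adjusted p = 7.7e-07 and 1.6e-07 from edgeR). HNRNPA1 fell too, with −0.60 ± 0.123 and −0.56 ± 0.123 (adjusted p = 0.00126 and 0.00181 from edgeR), a value that is uncertain because near-identical copies of the gene can take its reads. None of the 10 passed upon depletion in untreated cells, where 27.4% of all genes did, nor did any of the 3 proteins of the U1 snRNP. Of these 3 proteins, 1 rose upon Cisplatin in control cells, and 2 rose and 1 fell in depleted cells.

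Of 3 genes for nuclear import and arginine methylation, TNPO2, a transportin, rose and PRMT1, which methylates the arginine- and glycine-rich repeats of FET proteins, fell upon Cisplatin in either background. TNPO1, the other transportin, passed in neither (−0.04, adjusted p = 0.833, in control and 0.29, adjusted p = 0.0858, in depleted cells, from edgeR). TNPO2 was also the second gene of the list that rose upon depletion in untreated cells (0.40 ± 0.077, adjusted p = 0.00251 from edgeR). PRMT1, which was named after its values were seen, changed by −0.24 ± 0.089 in control and −0.24 ± 0.089 in depleted cells (adjusted p = 0.0377 and 0.0324 from edgeR).

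The genes whose level over the 12 libraries was most like that of EWSR1, among 9778 genes whose mean reached 10 CPM, were DNMT1, SNHG17 and TRAP1, with Pearson's r of 0.968, 0.950 and 0.940 on the log2 scale. For TAF15 they were RAD50, TOP1 and ADGRG6, with r of 0.892, 0.887 and 0.880. These values describe the same libraries, groups and scaling and carry no test. The genes named depend on the measure. With Spearman's correlation they were SNHG17, NPRL3 and DNMT1 for EWSR1, and ADGRG6, NUP62CL and SP1 for TAF15. With scaling to library size NTN4 took the place of TRAP1 for EWSR1. DNMT1, which maintains DNA methylation, followed EWSR1 down to its low level in library 2 of the untreated control cells (121 CPM against 174 and 163) and to its lowest group, Cisplatin-treated depleted cells (114 to 132 CPM). TAF15 and EWSR1 had an r of 0.606 with each other, which ranked TAF15 at 1706 for EWSR1 and EWSR1 at 191 for TAF15.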

How the data were processed

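RNA from A549 cells was sequenced as stranded poly(A) libraries, 12 in all (4 groups of 3). Per the submitters' notes, bcl2fastq 2.17, cutadapt, Bowtie2, STAR 2.5.2b, Cufflinks, Cuffdiff and HTSeq were used with build hg19. The authors deposited raw counts per gene from STAR, counts over exons and over whole genes from HTSeq, and rMATS tables of counts of inclusion and skipping reads for 5 categories of events. Columns of fold changes, inclusion differences and p-values of the authors' own comparisons were not used.

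Gene counts on the gene's strand were fitted over all 12 libraries with TMM scaling and the quasi-likelihood test of edgeR 4.0.16 (R 4.3.3), Benjamini-Hochberg adjusted over 15352 genes at 0.05. Form and intron ratios were fitted with edgeR on inclusion and skipping (or intronic and exonic) reads of the 2 groups compared, over whole tables. DESeq2 1.42.0, limma 3.58.1, other filters and scaling, and leaving out each library were the alternatives. Comparisons share groups, so they are not independent. The gene members, lists and tests were chosen with earlier results of these data known. Named genes were the 2 largest rises and the 2 largest falls of the related list in each comparison, and the 3 genes most like each member over the libraries. Named events were all retained introns, the events past the threshold and the most read event per category. PRMT1, TNPO1 and TAF15 exon 8 were named after their values were seen. Sequences come from GRCh37, the build of the files.

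Whether replicate numbers pair libraries was checked from deviations from group means: control cells with and without Cisplatin did so (r = 0.481, 0.668 and 0.376), no other groups did, and the replicate block changed no call of EWSR1 or TAF15 in the fit of all libraries. Read depth was 26220526 to 45721152 read pairs on gene strands, and intervals and limits of counts cover counting error only. Python 3.11.15 drew the figures.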

Additional observations from a re-analysis of the deposited data

Results flagged for a closer look

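Over the 33 related genes, the Cisplatin effect in depleted minus that in control cells passed the test for 3, where 4.25% of all 15352 genes did so. TAF7, a subunit of TFIID, had a difference of 0.58 on the log2 scale (adjusted p = 0.0176 from edgeR). SNRPA, a protein of the U1 snRNP, had −0.51 (adjusted p = 0.0371 from edgeR), and TAF3, a subunit of TFIID that rose upon Cisplatin in both backgrounds, had −0.46 (adjusted p = 0.0409 from edgeR). These 3 calls are given for the fit of all libraries only. With all libraries 304 genes were higher and 348 lower by this test. Without untreated depleted library 1 these counts were 73 and 98, and without untreated control library 2 they were 704 and 843.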

How the results depend on the processing

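Scaling to library size gave −0.115 for EWSR1 upon Cisplatin over both backgrounds (adjusted p = 0.137), 0.027 in control cells, a change of sign, and 0.213 upon depletion in untreated cells (adjusted p = 0.0487), and 4 lower related genes upon Cisplatin in control cells. With DESeq2, TAF15 had −0.008 upon Cisplatin over both backgrounds and −0.293 in depleted cells, where it passed (adjusted p = 0.0215). It also passed there with unstranded counts (−0.263), with the 2 groups alone (−0.302) and with these and the replicate block (−0.305). The 2 groups alone ended its rise upon Cisplatin in control cells (0.295, adjusted p = 0.0719), but with their replicate block it passed. Its rise upon depletion in untreated cells did not pass without a filter (0.316), with unstranded counts (0.305), with the 2 groups alone (0.317) or with their replicate block (0.324). The 2 groups alone left 3 lower related genes upon Cisplatin in control cells, and 1 higher and 1 lower upon depletion in untreated cells, both also 1 with the replicate block. A limit of 10 points gave 2 called EWSR1 events and no limit 5, against 0 at 20 points, and TAF15 had 4 without a limit and 0 with limma, against 1. With limma the intronic ratios of EWSR1 (0.446) and TAF15 (0.413) did not pass upon depletion in untreated cells, nor with the replicate block (0.446 and 0.413). The cause of these changes was not tested.

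Leaving out 1 library gave, for EWSR1, −0.279 to −0.191 upon Cisplatin over both backgrounds, −0.187 to −0.005 in control cells, −0.394 to −0.336 in depleted cells and 0.080 to 0.262 upon depletion in untreated cells. For TAF15 these were −0.060 to 0.087, 0.184 to 0.380, −0.363 to −0.179 and 0.204 to 0.400, the last with its call kept in 4 of 12. Over both backgrounds TAF15 turned negative without untreated control library 2 (−0.060) or Cisplatin-treated control library 1 (−0.010), 2 (−0.015) or 3 (−0.032). Related genes numbered 7 to 10 higher and 3 to 9 lower upon Cisplatin in control cells, 9 to 15 and 8 to 11 in depleted cells, and 1 to 2 and 1 to 5 upon depletion. The EWSR1 intron 14 stretch differed by 3.73 to 12.4 points in untreated cells. Intronic ratios upon Cisplatin in control cells, in depleted cells and upon depletion in untreated cells were −0.378 to 0.233, 0.759 to 0.944 and 0.350 to 0.535 for EWSR1, and −0.002 to 0.527, 1.14 to 1.30 and 0.316 to 0.517 for TAF15, whose −0.002 came without Cisplatin-treated control library 3.

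The fits of 2 groups with the replicate block, and the alternatives for the 4 single events named with limma or left-out libraries, were chosen after seeing the data. The replicate block in the fit of all libraries changed no call of EWSR1 or TAF15. No paired analysis of the splicing events was run, because the order of libraries is unnamed in the splicing tables. In every group, the intron 8 reads of libraries a, b and c ranked as the EWSR1 intronic reads did by replicate number. Skipping reads of 24 and 27 in all for the exon 8 and exon 4 events limit what depth can show there.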
